A study of Mus musculus with 6 samples.

Results

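The genes described here encode ephrins and their Eph receptors, Slits and their Robo receptors, and netrins with the netrin-G proteins and the Unc5 receptors. They were taken by symbol from the array annotation, using probe sets that list exactly 1 gene. The rule found 38 probe sets of 37 genes, among 22180 genes in all. Ephb1 had 2 such probe sets, of which the brighter was used. Ntn5 shares its probe sets with another gene, Ephb2 has no probe set with a single symbol here, and neither was analysed here.

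Arrays were made from 6 mice, 3 per group, with 1 array per mouse. The cells were sorted with magnets from mouse gliomas by an antibody against CD105 (endoglin) and kept in glioma-conditioned medium for 12 h. The labels call them tumor-associated endothelial cells. Mice of both groups were Pfn1fl/fl:Y129F, that is, with floxed alleles of Pfn1 (profilin-1, an actin-binding protein) and its Y129F form. Mice 1, 3 and 4 also carried Tie2-Cre, a recombinase driven by the promoter of the endothelial receptor gene Tek, which is also active in part of the blood lineage. Mice 6, 7 and 10 had no Cre. By its title, the series is about the role that phosphorylated profilin-1 has in the genes such cells express. The ages of the mice, and what Cre does to these alleles, are not given in the sources used here.

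These families were found as guides of growing nerve fibres and also steer blood vessels. Eph receptors are tyrosine kinases that meet membrane-bound ephrins on neighbouring cells, and both partners can signal into their own cell. Ephrin-A ligands hang on a lipid anchor and mostly bind EphA receptors, while ephrin-B ligands cross the membrane and mostly bind EphB receptors. In vessels, ephrin-B2 marks arteries and EphB4 marks veins. Slits are secreted and bind Robo receptors, of which Robo4 is largely endothelial. Netrins are secreted too and act through Dcc, neogenin and the Unc5 receptors, with Unc5b the member best known in vessels.

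Levels are log2 of the RMA intensity, and a change is the mean with Tie2-Cre less the mean without Cre on that scale. Its standard error (SE) comes from a limma fit over all 22180 genes. A gene was called when its Benjamini-Hochberg adjusted p lay under 0.05. No detection call came with the values. The 1088 olfactory receptor genes, a family not known for expression in vessels, served as a reference for dim probe sets, and 95 percent of them lay at or under a mean of 6.81. Of the 37 guidance genes, 27 lay above that level in at least 1 group and 10 did not. The dim ones were Epha1, Epha5, Epha6, Epha7, Ephb6, Robo3, Ntn3, Ntng1, Unc5c and Unc5d, and a change in them may be hidden by the background signal.

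Some facts of the whole set of arrays bear on every comparison. Pfn1 lay at 12.41 ± 0.0045 (SD, n = 3) with Tie2-Cre and 12.37 ± 0.026 (SD, n = 3) without Cre. The change was 0.04 (SE 0.062, limma adjusted p 0.776), and an exact two-sided permutation test gave 0.1, the smallest p this number of mice can give. The Y129F form cannot be read from this probe set. The Xist signal was near 11.35 on average in the mice without Cre and near 5.75 in those with Tie2-Cre, and the Y-linked genes ran the other way. Sex and Cre therefore cannot be told apart in any comparison here.

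The endothelial label was checked against 18 endothelial markers. Of these, 12 lay within the range of the olfactory receptor probe sets in both groups, among them Pecam1, Kdr, Tek, Cldn5 and Emcn. Eng, the sorting antigen, was bright at 12.05 without Cre and 11.76 with Tie2-Cre. Fibroblast markers lay within that dim range in 1 of 14 genes and pericyte and smooth muscle markers in 1 of 14. The same range held 4 of 14 mesothelial and epithelial markers and 6 of 14 macrophage and microglia markers. It also held 3 of 8 neuron markers and 5 of 10 astrocyte, oligodendrocyte and progenitor markers. Brightness differs between probe sets, so these levels give no cell shares and do not show that a cell type was present.

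Marker lists also differed between the groups. The summed linear intensity of 14 mesothelial and epithelial markers was 1862 to 2011 with Tie2-Cre and 5323 to 5924 without Cre, with 0 members higher and 5 lower. That of 14 pericyte and smooth muscle markers was 31504 to 37373 with Tie2-Cre and 22583 to 24003 without Cre, with 6 higher and 1 lower. For 14 fibroblast markers it was 26983 to 29592 and 24788 to 25076 (6 higher, 2 lower), and for 14 macrophage and microglia markers 1536 to 1621 and 1845 to 1974 (0 higher, 4 lower). The 18 endothelial markers summed to 5136 to 5416 and 5728 to 5947 (1 higher, 1 lower). Bright genes weigh most in a linear sum, and Eng (11.76 and 12.05), the lower gene, is by far the brightest of this list. The higher gene was Flt1 (8.68 and 7.57). The direction of the endothelial sum thus follows Eng and was not read without it. For 8 neuron markers the sums were 2070 to 2536 and 1478 to 1492 (1 higher, 0 lower), and for 10 astrocyte, oligodendrocyte and progenitor markers 1117 to 1175 and 967 to 1046 (1 higher, 0 lower). The higher neuron marker, Tubb3 (10.04 and 8.98), is also the brightest of its list. So is Nes (8.50 and 7.91), the higher gene of the astrocyte, oligodendrocyte and progenitor list. Neither sum was read without that gene, so its difference may rest on 1 gene. At an unadjusted p under 0.05, limma gave 1 lower neuron marker, and the other counts of 0 stayed at 0. In every one of these lists the summed levels of the groups did not overlap. Their part in the results on guidance genes was not tested, and fewer cells of a type cannot be told apart from less RNA per cell.

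**Figure D1:**
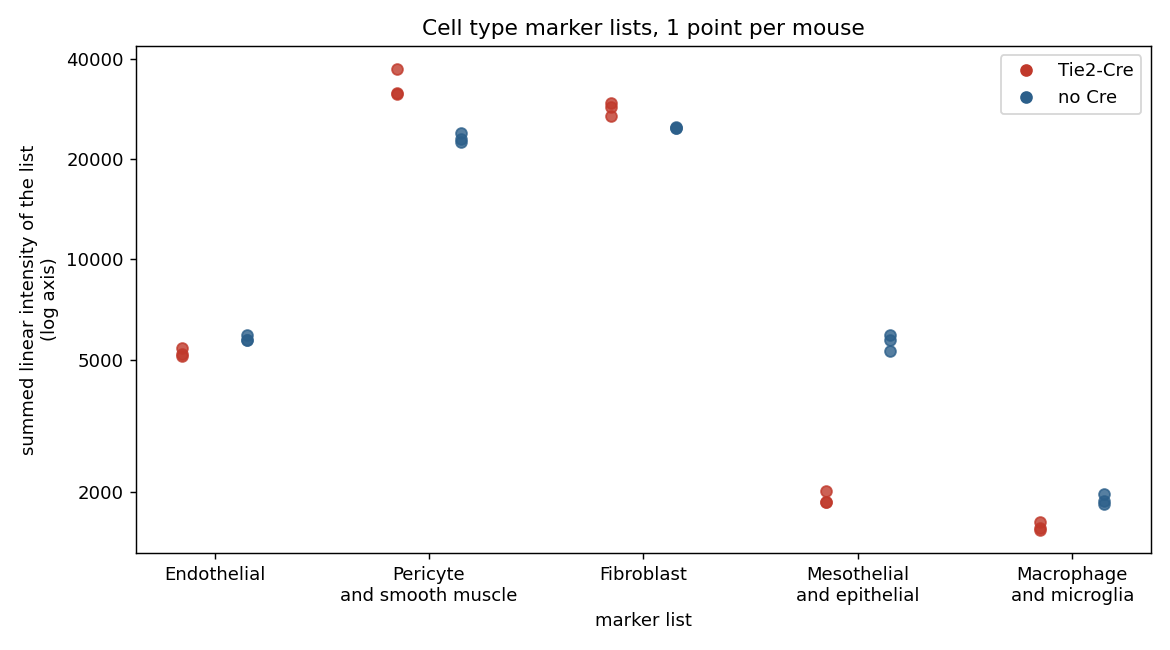
Summed linear intensity (log axis) of 5 marker lists, 1 point per mouse, Tie2-Cre in red and no Cre in blue. The mesothelial and epithelial list is lower in all 3 Tie2-Cre mice (1862 to 2011 against 5323 to 5924), and the pericyte and smooth muscle list is higher.

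Cells with Tie2-Cre had more message for ephrin-B1, ephrin-B2, EphB4 and netrin-1, and less for EphA4, EphA3, ephrin-A3 and Robo1. Of the 37 guidance genes, 4 were higher (Efnb1, Efnb2, Ephb4 and Ntn1), 4 were lower (Epha4, Epha3, Efna3 and Robo1) and 29 did not pass the threshold. Over all genes, 4.78% were called higher and 7.17% lower, 12.0% in all, against 21.6% of the guidance genes. The median change was -0.01 over the guidance genes and -0.0042 over all genes, and the median absolute change 0.18 and 0.11. The arrays of the groups did not overlap in 16 of the 37, or 43.2%, against 31.0% of all genes.

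Called ephrin and Eph genes of the A class were lower and those of the B class higher. Among the 14 genes of the A class, 0 were higher and 3 lower, and among the 7 genes of the B class, 3 were higher and 0 lower by limma. At an unadjusted p under 0.05 these counts were 2 higher and 5 lower in the A class and 5 higher and 0 lower in the B class, where 10.6% of all genes were higher and 14.3% lower, 24.9% in all. All 37 guidance genes held 9 higher and 7 lower at that threshold. The median change was -0.14 in the A class and 0.28 in the B class, with 5 of 14 and 5 of 7 changes above 0. The difference between the classes was not tested.

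The counts depended on the mice. The number higher was 2 when Tie2-Cre mouse 1, or any 1 of the mice without Cre, was left out. The number lower was 2 when mouse 1, 6 or 7 was left out. Over all genes, the share called in either direction also fell, from 12.0% to between 7.15% and 9.72% in these fits. The calls of Epha4, Efna3, Efnb1 and Efnb2 were kept when any of the 6 mice was left out. Those of Epha3, Ephb4, Ntn1 and Robo1 were not, as given with each gene.

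**Figure D2:**
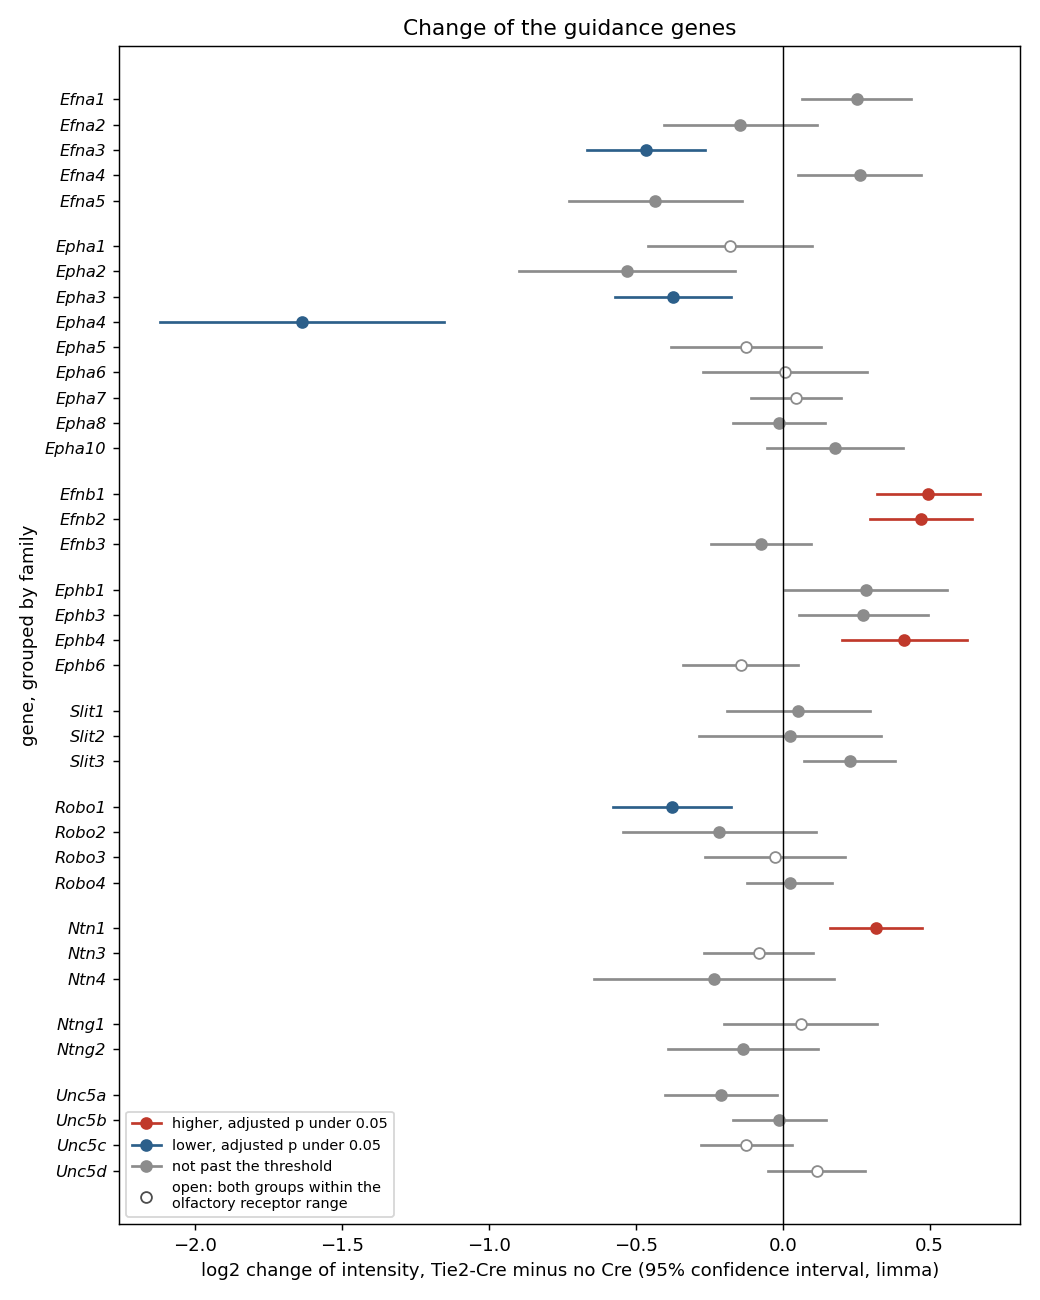
Log2 change (Tie2-Cre minus no Cre) with its 95% confidence interval from limma for all 37 genes, grouped by family. Red marks the 4 genes called higher, blue the 4 called lower, gray the rest, and open circles the 10 genes within the olfactory receptor range in both groups. Epha4 stands farthest from 0 at -1.64.

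For 6 of the called ephrin and Eph genes, the sequence just upstream of the RefSeq start (build GRCm38.p6) is shown, since called genes of the B class were higher together and called genes of the A class lower together. Each window runs from 250 to 21 bases before the listed start, 230 bases in all, 5′ to 3′ on the gene's strand. Capitals mark GGGCGG or its reverse complement CCGCCC, the GC box bound by Sp1-type factors. They also mark ACGTG or its reverse complement CACGT, a form of the core bound by hypoxia-inducible factors, which also lies within the E-box CACGTG. Other forms of that core were not searched for and are not marked.
Efnb1, chrX:99135811-99136040, plus strand: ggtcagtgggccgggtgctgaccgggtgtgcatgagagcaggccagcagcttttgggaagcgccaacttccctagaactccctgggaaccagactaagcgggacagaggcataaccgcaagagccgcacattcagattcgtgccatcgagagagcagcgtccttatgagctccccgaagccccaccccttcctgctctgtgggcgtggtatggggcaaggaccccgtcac
Efnb2, chr8:8661263-8661492, minus strand: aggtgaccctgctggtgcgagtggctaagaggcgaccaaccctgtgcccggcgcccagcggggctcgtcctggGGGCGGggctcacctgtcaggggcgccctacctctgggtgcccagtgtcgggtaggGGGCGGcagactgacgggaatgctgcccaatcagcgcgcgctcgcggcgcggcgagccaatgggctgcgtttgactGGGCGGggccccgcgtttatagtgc
Ephb4, chr5:137349859-137350088, plus strand: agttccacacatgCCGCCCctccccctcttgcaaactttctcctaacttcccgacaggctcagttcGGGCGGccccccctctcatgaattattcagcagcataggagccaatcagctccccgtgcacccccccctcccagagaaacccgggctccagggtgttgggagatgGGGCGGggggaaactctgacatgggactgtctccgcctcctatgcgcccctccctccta
Epha4, chr1:77515109-77515338, minus strand: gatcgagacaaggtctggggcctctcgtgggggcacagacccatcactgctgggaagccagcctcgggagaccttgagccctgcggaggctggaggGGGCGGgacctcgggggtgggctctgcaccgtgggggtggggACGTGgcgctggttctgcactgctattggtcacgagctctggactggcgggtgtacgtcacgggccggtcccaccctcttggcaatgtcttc
Epha3, chr16:63864196-63864425, minus strand: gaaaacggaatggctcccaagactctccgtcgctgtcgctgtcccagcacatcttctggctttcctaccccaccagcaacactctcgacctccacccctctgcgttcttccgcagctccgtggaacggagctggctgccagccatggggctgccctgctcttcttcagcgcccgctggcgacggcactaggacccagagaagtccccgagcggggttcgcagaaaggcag
Efna3, chr3:89322960-89323189, minus strand: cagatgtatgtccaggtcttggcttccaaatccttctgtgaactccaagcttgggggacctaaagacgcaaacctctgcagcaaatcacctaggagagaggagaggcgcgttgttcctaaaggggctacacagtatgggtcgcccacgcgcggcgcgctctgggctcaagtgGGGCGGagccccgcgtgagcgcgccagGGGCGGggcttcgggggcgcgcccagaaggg

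Among these windows, only that of Epha4 held ACGTG, with 1 match outside an E-box. Of all 32851 windows of this length in the RefSeq table, 15.1% hold it, and of the 38 windows of 33 guidance genes 3 (7.89%) do. GGGCGG was found in the windows of Efnb2 (3 matches), Ephb4 (3), Epha4 (1) and Efna3 (2). RefSeq lists a further start for Efna3, and its window (chr3:89321789-89322018), not printed, holds 3 matches of GGGCGG and 0 of ACGTG. The GC box occurs in 68.4% of the guidance gene windows and in 29.8% of all windows. The guidance gene windows also had a higher median GC content, 64.3% against 51.7%. The part of GC content in the share of windows with a GC box was not tested. These matches are letters in a window and show no binding.

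Ephrin-B ligands were higher with Tie2-Cre in 2 of 3 genes, where 4.78% of all genes were. Efnb2, the arterial ephrin, read 9.81, 9.93 and 9.92 in Tie2-Cre mice 1, 3 and 4 and 9.36, 9.37 and 9.52 in no Cre mice 6, 7 and 10. The lowest Tie2-Cre mouse thus lay above the highest mouse without Cre. The change was 0.47 (SE 0.075, limma adjusted p 0.00598), a ratio of 1.39. Efnb1, an X-linked ephrin whose loss disturbs the skeleton of the face and skull in people, read 9.34, 9.28 and 9.50 with Tie2-Cre and 8.87, 8.88 and 8.88 without Cre. The mice without Cre differed by little, and all 3 Tie2-Cre mice were above them. Its change was 0.49 (SE 0.076, adjusted p 0.00486). Of 899 X-linked genes, 27 (3.00%) were called higher and 72 (8.01%) lower. Efnb3, best known from the nervous system, lay at 7.52 ± 0.076 and 7.59 ± 0.071 (SD, n = 3 each) and did not pass (change -0.07, 95% interval -0.25 to 0.10).

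EphB receptors bind these ligands, and Ephb4, the venous receptor of ephrin-B2, was higher. It read 9.05, 9.15 and 8.83 in Tie2-Cre mice 1, 3 and 4 and 8.60, 8.63 and 8.56 in no Cre mice 6, 7 and 10. The groups did not overlap, with mouse 4 nearest to the mice without Cre. The change was 0.41 (SE 0.092, adjusted p 0.0247). The call held without Tie2-Cre mouse 4 (0.50, adjusted p 0.00772) and was lost without any other mouse (0.34 to 0.43, adjusted p 0.0652 to 0.0849). Ephb3, a kinase of the same class, moved by 0.27 (SE 0.095, adjusted p 0.113) and did not pass. The brighter probe set of Ephb1 moved by 0.28 (SE 0.12, adjusted p 0.187) and its other probe set by -0.07 (SE 0.089), so they differ in sign and neither passed. Ephb6, which lacks kinase activity, was dim at 6.31 and 6.46 and did not pass.

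Other genes that mark veins or arteries were read beside this pair. Of 6 venous genes, Ephb4 included, 3 were higher and 0 lower by limma, also at an unadjusted p under 0.05. Over all genes, 4.78% were called higher and 7.17% lower, with 10.6% and 14.3% at the unadjusted threshold. With 12 of 18 endothelial markers in the dim range, counts from these short lists do not show a change of vein or artery identity. Nr2f2, the transcription factor of venous identity, rose by 0.58 (SE 0.078, adjusted p 0.00279) and the co-receptor Nrp2 by 0.64 (SE 0.11, adjusted p 0.00937). Of 11 arterial genes, a list that leaves out Efnb2, 1 was higher and 1 lower, and 2 were higher and 2 lower at an unadjusted p under 0.05. With Efnb2 counted, as Ephb4 was among the venous genes, 2 of 12 were higher and 1 lower. Without Ephb4, 2 of 5 venous genes were higher. Among the 11 arterial genes, the higher gene was the co-receptor Nrp1 (0.77, SE 0.083). The lower arterial gene was the kinase gene Bmx (-0.66, SE 0.17, adjusted p 0.0396), whose call held only without Tie2-Cre mouse 3 (-0.78, adjusted p 0.0407). Leaving out any other mouse gave an adjusted p of up to 0.111. The Notch ligand Dll4 among the arterial genes and Aplnr and Emcn among the venous ones were within the dim range in both groups. Nrp2 (6.88 with Tie2-Cre and 6.24 without Cre) was within it without Cre only. Bmx (6.45 with Tie2-Cre and 7.11 without Cre) was within it with Tie2-Cre only.

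**Figure D3:**
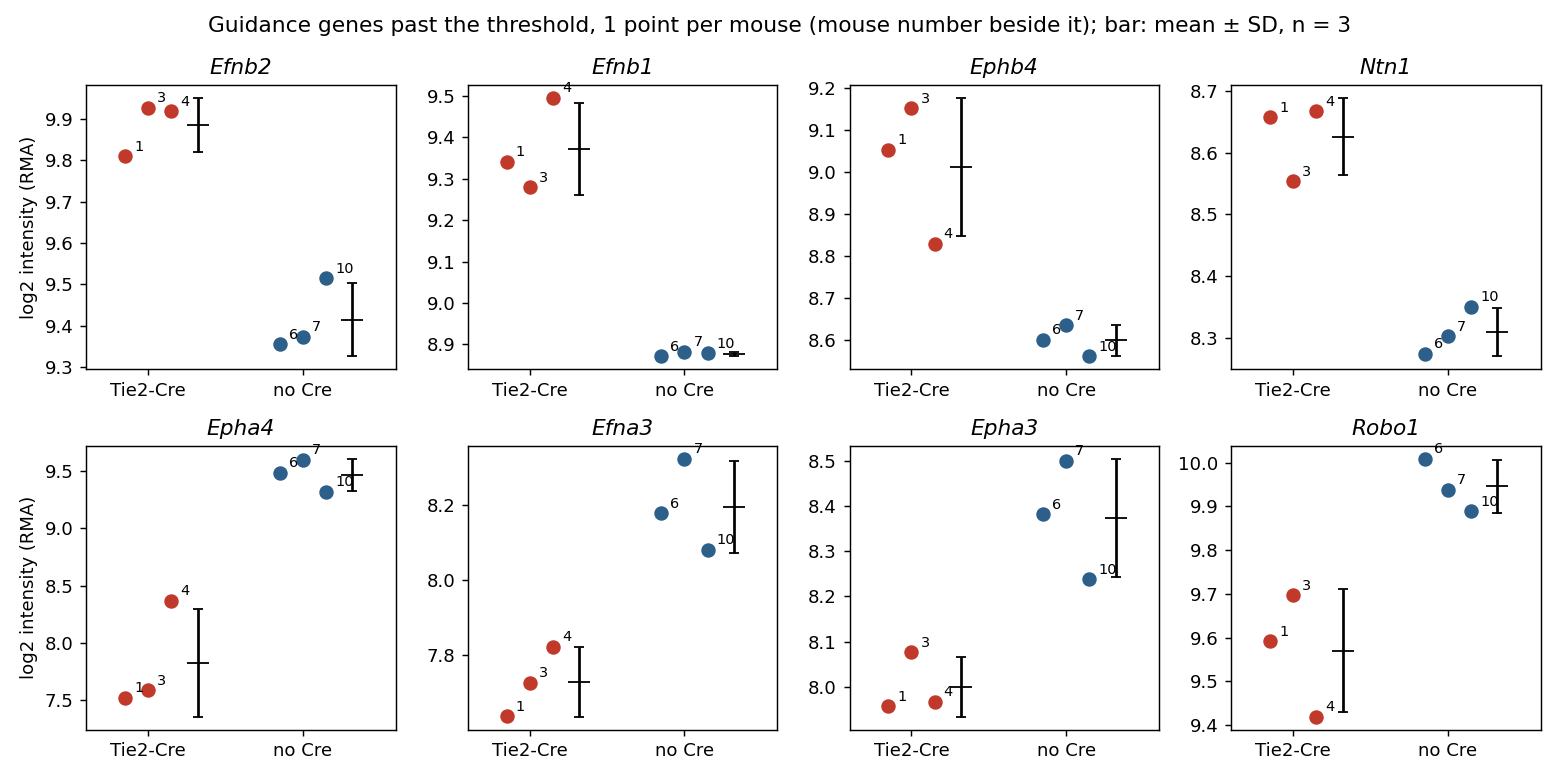
Log2 intensity of the 8 called guidance genes, 1 point per mouse with the mouse number, Tie2-Cre in red and no Cre in blue; the bar is the mean ± SD (n = 3). The scale differs between panels. The groups do not overlap in any panel, and Tie2-Cre mouse 4 lies nearer to the other group than its group mates for Epha4, Efna3 and Ephb4.

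EphA receptors included the largest change of all 37 genes. Epha4, a receptor that unlike most of its class binds ligands of both classes, read 7.52, 7.59 and 8.37 in Tie2-Cre mice 1, 3 and 4 and 9.48, 9.60 and 9.32 in no Cre mice 6, 7 and 10. Every Tie2-Cre mouse was lower, mouse 4 less so than the others. The change was -1.64 (SE 0.21, adjusted p 0.0021), a 3.11-fold lower intensity and the 42nd largest fall of all genes. It ranged from -1.91 without Tie2-Cre mouse 4 to -1.49 without mouse 1. The mesothelial and epithelial marker sum, lower in the same mice, was also highest in mouse 4 within its group (2011 against 1871 and 1862). Among the mice without Cre the order was opposite. There the sum was lowest in mouse 7 (5323), highest in Epha4, and highest in mouse 10 (5924), lowest in Epha4. In mouse 4 the endothelial, pericyte and smooth muscle, and neuron sums were also the highest of its group, and the remaining cell type marker sums the lowest. The part of these cell types in the fall was not tested.

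Epha3, a receptor of ephrin-A5, read 7.96, 8.08 and 7.97 with Tie2-Cre and 8.38, 8.50 and 8.24 without Cre. The groups were apart by a narrow gap, and the change was -0.37 (SE 0.086, adjusted p 0.0273). The call was lost when mouse 1, 4, 6 or 7 was left out (-0.37 to -0.31, adjusted p 0.0732 to 0.0903). Epha2, a receptor with a role in tumor vessels, read 7.75, 8.29 and 8.42 with Tie2-Cre and 8.63, 8.77 and 8.64 without Cre. Here the groups did not overlap either, but the Tie2-Cre mice were spread widely, and the change of -0.53 (SE 0.16, adjusted p 0.0738) missed the threshold. It passed without Tie2-Cre mouse 4 (-0.66, adjusted p 0.0422).

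The other EphA receptors are best known from the nervous system or from epithelia and did not pass. Epha8 lay at 7.48 and 7.49 on average, with an interval of -0.17 to 0.14 for the change, and Epha10, which lacks kinase activity, moved by 0.18 (SE 0.10). Epha1, Epha5, Epha6 and Epha7 were within the dim range in both groups, with changes between -0.18 and 0.05.

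Ephrin-A ligands moved unequally. Efna3 read 7.64, 7.73 and 7.82 in Tie2-Cre mice 1, 3 and 4 and 8.18, 8.32 and 8.08 in no Cre mice 6, 7 and 10. All 3 Tie2-Cre mice were below all mice without Cre, and the change was -0.47 (SE 0.087, adjusted p 0.012). Its gene lies on chromosome 3 between Efna1 and Efna4, within 66.3 kb (chr3:89271730-89338028, GRCm38.p6). Those neighbours did not follow it. Efna1, a ligand of EphA2 induced by inflammatory signals in endothelium, moved by 0.25 (SE 0.080, adjusted p 0.0878), and Efna4 by 0.26 (SE 0.090, adjusted p 0.112), neither past the threshold. In both of them the Tie2-Cre mice were all above the mice without Cre, 7.59 to 7.79 against 7.37 to 7.50 for Efna1 and 8.29 to 8.39 against 7.93 to 8.24 for Efna4.

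Efna5, a ligand of EphA3 and EphA4, read 7.97, 8.13 and 8.50 with Tie2-Cre and 8.58, 8.64 and 8.69 without Cre. The change of -0.43 (SE 0.13) missed the threshold (adjusted p 0.0691), with mouse 4 close to the mice without Cre. Without Tie2-Cre mouse 4 it was -0.58 (adjusted p 0.00658). Efna2 moved by -0.14 (SE 0.11) and its groups overlapped.

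Slit and Robo genes held 1 call among 7 (14.3%), near the 12.0% of all genes. An unadjusted p under 0.05 was found for 2 of the 7, where 24.9% of all genes had it. Robo1, a Slit receptor on nerve, tumor and endothelial cells, read 9.59, 9.70 and 9.42 in Tie2-Cre mice 1, 3 and 4 and 10.01, 9.94 and 9.89 in no Cre mice 6, 7 and 10. The Tie2-Cre mice were all lower, mouse 4 the lowest, and the change was -0.38 (SE 0.087, adjusted p 0.0286). The call held only without Tie2-Cre mouse 3 (-0.44, adjusted p 0.028) and was lost without any other mouse (-0.40 to -0.30, adjusted p 0.063 to 0.0971). Robo4, the endothelial Robo, lay at 6.83 ± 0.0047 and 6.81 ± 0.039 (SD, n = 3 each), just above the level of 6.81 that 95 percent of olfactory receptor genes do not pass. Its change was 0.02, with a 95% interval of -0.12 to 0.17. Robo2 moved by -0.22 (SE 0.14) and Robo3 was within the dim range.

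Of the ligands, Slit3, which besides guiding nerve fibres is made by many connective tissue cells, was bright in every mouse. It read 11.81, 11.81 and 11.77 with Tie2-Cre and 11.55, 11.65 and 11.52 without Cre. The groups did not overlap, but the change of 0.23 (SE 0.068) did not pass (adjusted p 0.0702). Slit2, the ligand most studied in vessels, read 10.55, 10.68 and 11.11 in Tie2-Cre mice 1, 3 and 4 and 10.74, 10.78 and 10.74 without Cre. The Tie2-Cre mice lay on both sides of the mice without Cre, and the change was 0.02 (SE 0.13, 95% interval -0.29 to 0.34). Slit1 moved by 0.05 (SE 0.11).

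Among the netrins, Ntn1, the founding secreted netrin, was higher. It read 8.66, 8.55 and 8.67 in Tie2-Cre mice 1, 3 and 4 and 8.27, 8.30 and 8.35 in no Cre mice 6, 7 and 10. The groups did not overlap and each was tight. The change was 0.32 (SE 0.068, adjusted p 0.0207), a ratio of 1.25, and the call held only without Tie2-Cre mouse 3 (0.35, adjusted p 0.0316), with 0.30 to 0.34 and an adjusted p of 0.0517 to 0.0789 without any other mouse. Ntn4, a laminin-related netrin of basement membranes, read 10.04, 10.04 and 10.74 with Tie2-Cre and 10.49, 10.55 and 10.47 without Cre. Tie2-Cre mice 1 and 3 lay below and mouse 4 above all mice without Cre, and the change of -0.23 (SE 0.18) did not pass. Without mouse 4 it was -0.47 (adjusted p 0.00884). Ntn3 and Ntng1 were within the dim range, and Ntng2 moved by -0.13 (SE 0.11).

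Unc5 receptors held 0 calls by limma among 4, and 1 at an unadjusted p under 0.05, which was Unc5a. Over all genes these shares were 12.0% and 24.9%. Unc5b, the netrin receptor of sprouting vessels, was bright in every mouse and read 11.00, 11.14 and 11.11 with Tie2-Cre and 11.06, 11.11 and 11.12 without Cre. These values overlap fully, and the change was -0.01 with a 95% interval of -0.17 to 0.15. Unc5a moved by -0.21 (SE 0.083, adjusted p 0.156), with the Tie2-Cre mice all below the others. Unc5c and Unc5d were within the dim range in both groups.

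In several of these genes Tie2-Cre mouse 4 lay apart from its group mates. Over the guidance genes as a whole the spread was close to that over all genes: the SD was larger in the Tie2-Cre group for 22 of 37 (59.5%), against 55.9% of all genes. Median SDs with Tie2-Cre and without Cre were 0.11 and 0.081 for guidance genes and 0.10 and 0.089 for all genes. Mouse 4 lay above its group mean by 0.54 for Epha4, 0.47 for Ntn4, 0.33 for Slit2, 0.30 for Efna5 and 0.26 for Epha2. These were the largest positive deviations of that mouse among the 37 genes. In the marker lists, mouse 4 had the highest pericyte and smooth muscle sum (37373) and the lowest fibroblast sum (26983) of its group. The part of those cells in the spread was not tested.

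**Figure D4:**
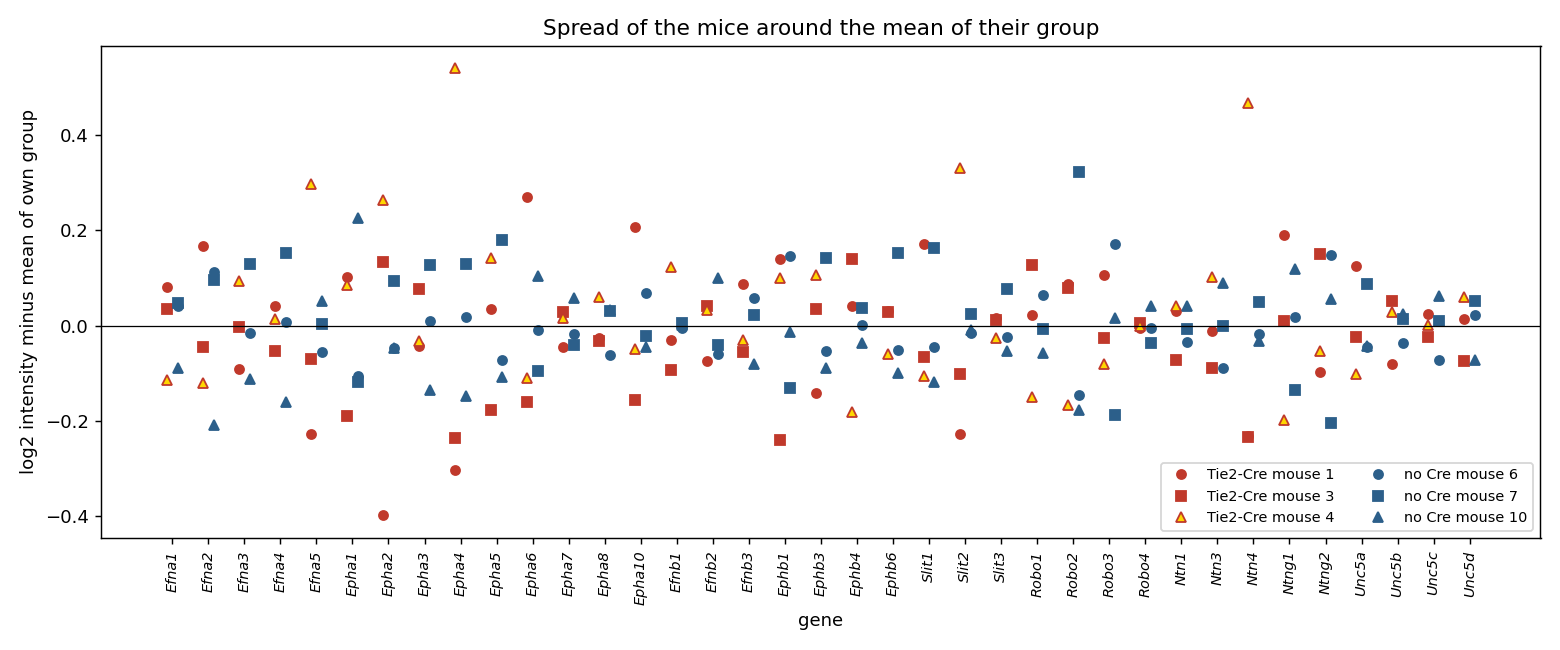
Log2 intensity of each mouse minus the mean of its own group, for all 37 genes, with Tie2-Cre mice in red (mouse 4 filled in yellow) and no Cre mice in blue. Mouse 4 stands highest for Epha4 (0.54), Ntn4 (0.47), Slit2 (0.33), Efna5 (0.30) and Epha2 (0.26).

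Beyond the ligands and receptors, a list of co-receptors, other ligands and intracellular effectors of these pathways was read. The 50 measured genes split into 8 higher, 3 lower and 39 not past the threshold, that is 16.0% higher against 4.78% of all genes and 6.0% lower against 7.17%. The higher genes included 2 that act directly with the families above. Neogenin (Neo1), a receptor of netrins and repulsive guidance molecules, read 11.48, 11.51 and 11.59 with Tie2-Cre and 10.95, 11.00 and 10.90 without Cre. The change was 0.57 (SE 0.068, adjusted p 0.00149). Srgap1, a GTPase-activating protein that couples Robo receptors to Cdc42, rose by 0.59 (SE 0.077, adjusted p 0.00238), from 7.75 to 8.34 on average.

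Nck2, an adaptor that links ephrin-B tails to actin, rose by 0.58 (SE 0.076, adjusted p 0.00229), and the membrane protease Mmp14 by 0.56 (SE 0.068, adjusted p 0.00161). These are the 4 higher genes of smallest p. In each of them every Tie2-Cre mouse was above every mouse without Cre, and the calls held without any of the 6 mice. The other 4 higher genes are named after their values were seen. Chn1, a Rac GTPase-activating protein that acts after EphA4, rose the most of the list (0.67, SE 0.10, adjusted p 0.00516) and also kept its call without any mouse. Myo9b (0.42) kept its call in 4 of 6 such fits (adjusted p 0.0189 to 0.0583), Srgap3 (0.29) in 1 (0.0482 to 0.152) and Rgmb (0.28) in 0 (0.0507 to 0.143). Of the lower genes, the Rac activator Tiam1, which binds Eph receptors, read 8.06, 8.27 and 7.69 with Tie2-Cre and 8.88, 8.99 and 8.87 without Cre. The Tie2-Cre mice were all lower, and the change was -0.91 (SE 0.14, adjusted p 0.0047). Flrt2, a ligand of Unc5 receptors, changed by -0.54 (SE 0.084, adjusted p 0.00508). The actin-binding protein gene Ablim3 changed by -0.55 (SE 0.13, adjusted p 0.0272), a call kept only without no Cre mouse 6 (-0.69, adjusted p 0.00795), with an adjusted p of up to 0.0903 without any other mouse. The netrin receptor Dcc and the Eph effector gene Arhgef15 were within the dim range in both groups. Ablim3 (6.28 with Tie2-Cre and 6.83 without Cre) was within it with Tie2-Cre only. Without no Cre mouse 10, 5 genes of the list were higher, and 7.48% of all genes were called in either direction.

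**Figure D5:**
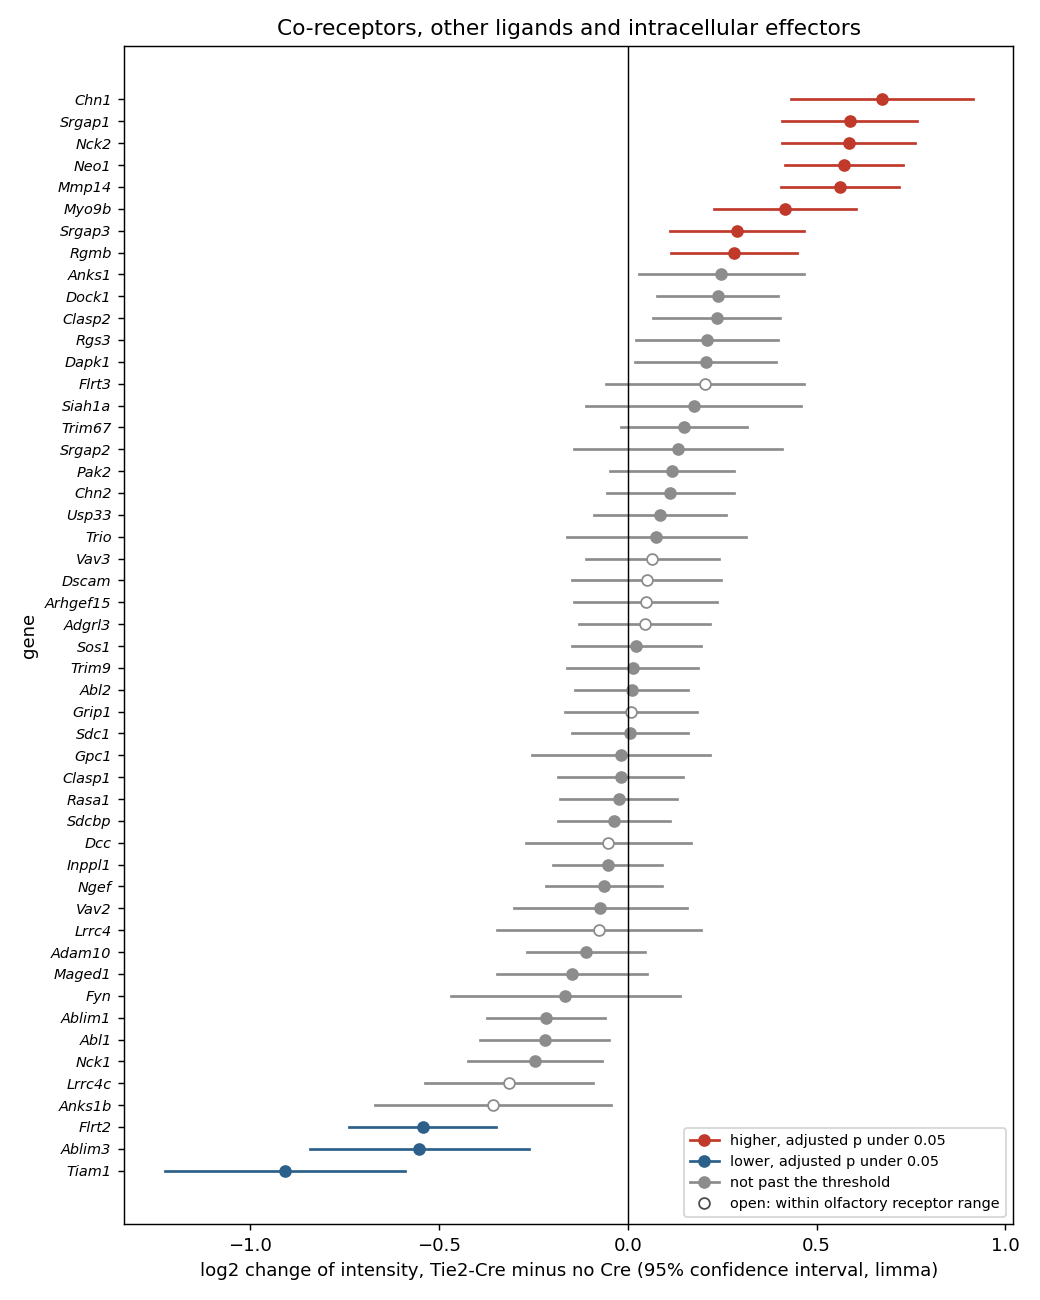
Log2 change (Tie2-Cre minus no Cre) with its 95% confidence interval from limma for the 50 measured co-receptors, other ligands and effectors, ordered by change. Red marks the 8 called higher, blue the 3 called lower, and open circles genes within the olfactory receptor range. Tiam1 is lowest at -0.91.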

How the data were processed

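Total RNA of 6 mice was read on Affymetrix Mouse 2.0 ST arrays. Per the labels, the authors deposited RMA intensities (background-corrected and quantile-normalized), which are linear here, computed in Expression Console. Its version and a genome build are not named in the sources used.

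The log2 of each intensity was taken. Of 41345 probe sets, 23521 had exactly 1 symbol, 1814 had several and 16010 had none listed. The probe set with the highest mean stood for a gene, leaving 22180. Groups were compared with limma 3.58.1 in R 4.3.3 (lmFit, eBayes, two-sided), with files read by data.table (version 1.17.8) and Benjamini-Hochberg adjustment over all genes. The pipeline was tested on simulated data. The number of mice limits the precision.

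Members, lists, alternatives and tests were chosen with earlier results of these data known. Every member could be named. Called members are given by sample, with up to 4 genes a direction from the effector list. Ephb1's further probe set and the bases of RefSeq upstream windows were read besides. The alternatives were other sets of genes tested, other filters, scalings and fits, the mean of probe sets, another call rule, and leaving out each mouse.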

Additional observations from a re-analysis of the deposited data

How the results depend on the processing

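No paired analysis was possible because the groups share no mouse number. The called guidance genes kept their direction under all 16 alternatives, most of which could not have turned it. Filters, added probe sets, the trend and robust fit and the other call rule leave the change itself as it was. Where the groups do not overlap, leaving out a mouse cannot turn the sign. The call of Epha4 was kept under all 16 alternatives. Those of Efna3, Efnb1 and Efnb2 were lost only when a call needed p under 0.05 before adjustment and a 1.5-fold change. By that rule 0 guidance genes were higher and 1 lower, and 2 effector genes higher and 1 lower. It called 4.4% of all genes. With all unlisted and several-symbol probe sets in the fit there were 2 guidance genes higher and 2 lower (5.1% of all tested called), without the calls of Ephb4 (adjusted p 0.0697), Ntn1 (0.0571), Epha3 (0.0738) and Robo1 (0.0769). Leaving out a mouse gave 2 to 3 guidance genes higher, 2 to 5 lower, 5 to 7 effector genes higher and 2 to 3 lower. In those fits, 7.15% to 9.72% of all genes were called. Leaving out genes below the olfactory receptor level or the dimmest 33.3% gave 10 higher and 5 lower effector genes each. Each also gave 6 guidance genes higher and 6 lower. The share of all genes called rose to 26.7% and 22.4%, from 12.0%. Efna1 (adjusted p 0.0356 and 0.044), Slit3 (0.0244 and 0.0322), Efna5 (0.031 and 0.0358) and Epha2 (0.0346 and 0.0397) passed in both, where fewer genes were tested. With trend and robust, Slit3 (0.00657), Efna5 (0.0278) and Epha2 (0.0429) passed. Slit3 also passed after quantile normalization again (0.0477) and Efna5 with array weights (0.0498). Over all alternatives, the adjusted p of Slit3 was 0.00657 to 0.194, that of Efna1 0.0356 to 0.237, that of Efna5 0.00658 to 0.18 and that of Epha2 0.0346 to 0.193.

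Changes near 0 that passed in no setting turned their sign. For Epha6 this was -0.0023 after quantile normalization again and -0.0018 with array weights, for Epha8 0.020 after quantile normalization again and 2.19e-05 with centred arrays, and for Unc5b 1.31e-05 with centred arrays. Leaving out a mouse gave -0.13 to 0.088 for Epha6, -0.043 to 0.0043 for Epha8, -0.034 to 0.16 for Ntng1, -0.12 to 0.059 for Robo3, -0.033 to 0.13 for Slit1, -0.14 to 0.14 for Slit2 and -0.038 to 0.028 for Unc5b. The cause was not tested. The change of Pfn1 was 0.023 to 0.054 and passed in no setting. With 3 mice a group and 10 guidance genes in the dim range, small changes cannot be seen. The limma p-values set the difference of the groups against the spread between these mice, estimated with the help of all genes. They do not tell Cre from sex.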
